A study of Mus musculus with 6 samples.

Results

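The genes described here are 36 genes of DNA replication and mitosis, read in the retinal pigment epithelium (RPE), by its label, of mouse embryos at embryonic day 13.5. They were taken by name, as 17 genes that act in S phase, when DNA is copied, and 19 that act in mitosis, when the copies are pulled apart. Each gene was read by 1 probe set, the one with the highest mean over the 6 arrays among those that the array's annotation gives to that gene alone, provided that its mean log2 value was at least 5. By this rule 34 of the 36 genes were tested, 16 of S phase and 18 of mitosis, among 12098 tested genes in all. Thymidylate synthase, Tyms, fell short of the level limit, with 5.10, 4.83 and 4.51 in albino pools and 5.12, 4.88 and 4.74 in pigmented pools for the brightest of its 4 probe sets. The lowest mean among the tested members was that of Cdc6, at 7.59. Ccnb1 had no probe set that the annotation used gives to it alone.

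The study set 3 pools of albino embryos against 3 pools of pigmented embryos, and each pool held the RPE of 3 to 4 littermates. Both groups were of the same age, and the labels name no mutated gene, strain or treatment for either. One label field speaks of the whole eye region, although the protocol describes cornea, lens and neural retina as dissected away. Labelling started from the 3' end of transcripts in 100 ng of RNA, which went onto Affymetrix arrays. All values below are log2 values made by RMA (robust multi-array average), and every difference is albino minus pigmented, so a positive one means a higher value in albino pools.

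Before S phase, the licensing factors Cdc6 and Cdt1 load the ring-shaped MCM helicase onto replication origins, and the GINS complex joins it when DNA unwinding starts. Pcna then clamps the polymerases to the template, and ribonucleotide reductase supplies the building blocks. In mitosis, Cdk1 with its cyclins drives entry, the Aurora and Polo-like kinases build the spindle, and the checkpoint kinases hold back Cdc20 until every chromosome is attached. Genes of S phase are known targets of E2F factors, and many genes of mitosis carry a CHR (cell cycle genes homology region) element together with CCAAT boxes, which work through the DREAM, MYB-MuvB, FOXM1 and NF-Y proteins. In the embryonic eye the young RPE still divides, and work on albino rodents has described abnormal timing of cell division in the neural retina beside it.

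The difference between the 2 kinds of promoter can be read in the sequences. The stretches below run 5' to 3' from 120 bases before to 50 bases after the start of each gene, from the RefSeq annotation of build GRCm38.p6. Mcm3 and Mcm6 are shown for their E2F letters, Cdk1, Ccnb2 and Cdc20 for CHR letters beside CCAAT letters, and Mcm2 as an S-phase gene with CHR letters and no E2F letters. They were picked for this after the letters had been counted. Capitals mark every match on either strand.
Mcm3 (chr1:20820263-20820432, minus strand): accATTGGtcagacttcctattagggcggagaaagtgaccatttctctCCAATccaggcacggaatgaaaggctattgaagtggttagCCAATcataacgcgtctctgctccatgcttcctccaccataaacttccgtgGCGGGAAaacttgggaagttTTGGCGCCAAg
Mcm6 (chr1:128359656-128359825, minus strand): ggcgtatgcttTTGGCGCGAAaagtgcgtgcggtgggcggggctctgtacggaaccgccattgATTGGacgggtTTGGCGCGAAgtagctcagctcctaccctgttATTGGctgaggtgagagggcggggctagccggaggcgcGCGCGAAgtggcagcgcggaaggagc
Mcm2 (chr6:88898731-88898900, minus strand): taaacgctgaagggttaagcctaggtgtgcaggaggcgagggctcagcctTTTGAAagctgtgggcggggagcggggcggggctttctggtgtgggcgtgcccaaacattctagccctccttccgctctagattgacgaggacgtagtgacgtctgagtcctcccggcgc
Cdk1 (chr10:69352863-69353032, minus strand): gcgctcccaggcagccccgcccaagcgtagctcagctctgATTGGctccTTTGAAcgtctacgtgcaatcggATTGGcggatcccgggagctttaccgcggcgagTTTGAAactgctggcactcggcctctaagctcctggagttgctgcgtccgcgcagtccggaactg
Ccnb2 (chr9:70421505-70421674, minus strand): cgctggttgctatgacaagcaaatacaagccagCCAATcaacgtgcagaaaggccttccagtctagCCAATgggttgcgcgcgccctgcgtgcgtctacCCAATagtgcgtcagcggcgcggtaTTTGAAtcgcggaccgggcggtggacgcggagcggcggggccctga
Cdc20 (chr4:118437294-118437463, minus strand): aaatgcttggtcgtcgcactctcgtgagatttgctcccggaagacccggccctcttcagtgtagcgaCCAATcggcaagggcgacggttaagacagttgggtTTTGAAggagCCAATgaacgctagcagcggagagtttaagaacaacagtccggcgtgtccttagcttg

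The letters searched for E2F were TTCCCGC or TTCGCGC or TTGGCGC or TTGCCGC, those for CHR were TTTGAA or TTCGAA, and those for the CCAAT box were its own name, each on both strands. The E2F words can overlap each other and CCAAT, so that a single capital run may hold several matches. Windows of 250 bases before to 50 after the start were given for 13 of the 17 S-phase members and 16 of the 19 mitotic members. E2F letters stood in the windows of 8 of the 13 S-phase members (61.5%) and of 3 of the 16 mitotic members (18.8%), against 10.9% of the 27025 genes with a window. CHR letters stood in 2 of the 13 S-phase members (15.4%) and 12 of the 16 mitotic members (75.0%), against 21.7% of all genes. CCAAT letters were found in 69.2% of the S-phase windows and 87.5% of the mitotic ones, against 41.1% of all genes. All 12 mitotic members with CHR letters had CCAAT letters in the same window, a combination that 8.6% of all genes held. The 2 mitotic members with both E2F and CHR letters were Cdk1, the mitotic kinase, and Mki67, and the 1 S-phase member was Mcm7. In Cdk1 the E2F letters lay farther from the start than the printed stretch. These matches describe the letters in the windows and no binding.

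Of the variance over all tested probe sets, 68.9% lay on a first axis that set the array numbered 1 of each genotype apart from the other 4 arrays. The 11 RPE markers had list means of 9.64 to 9.82 in albino pools and 9.82 to 10.07 in pigmented pools, so the labelled tissue was present in every pool, and all 11 were lower in albino (median difference -0.187). Of 23591 tested probe sets, 0 passed an adjusted p of 0.05 in limma. The 12 skeletal muscle markers had list means of 8.42 to 9.07 in albino pools and 7.03 to 7.94 in pigmented pools, and all 12 were higher in albino (median difference 1.53). The 8 macrophage markers had means of 7.06 to 7.09 in albino pools and 6.84 to 6.91 in pigmented pools, with 6 higher and 2 lower in albino. All 6 surface ectoderm markers were higher in albino (median difference 0.093), and the 7 endothelial markers had a median difference of -0.020. The 8 tested periocular mesenchyme markers had means of 10.77 to 10.90 in albino pools and 10.79 to 11.01 in pigmented pools (median difference -0.102). The 5 tested erythroid markers had means of 9.27 to 9.93 and 9.36 to 9.45 (median difference 0.103). The 6 tested neuron markers had a median difference of -0.048, with 3 higher and 3 lower in albino. The 8 tested markers of retinal progenitors, which divide at this age, had means of 7.16 to 7.68 in albino pools and 7.43 to 7.90 in pigmented pools, and 7 of them were lower in albino. Lens markers, 4 of them tested, averaged 7.51, 7.91 and 4.86 in albino pools and 7.58, 7.58 and 7.99 in pigmented pools. Albino replicate 3 thus stood apart below the other pools, in which lens transcripts were read despite the dissection described. The 3 tested Y-linked genes averaged 7.06 to 7.99 in albino pools and 2.32 to 7.39 in pigmented pools, so the sex makeup of the pools was not alike. Fewer cells of a type and less RNA per cell cannot be told apart in such pools. Which cell types gave the members' RNA cannot be told either.

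Across the 34 tested members, albino and pigmented pools lay close together. The S-phase members had a median difference of -0.013, with 6 higher and 9 lower in albino pools and Mcm10 at 0.00. The mitotic members had a median difference of -0.035, with 7 higher and 11 lower. Over all 12098 tested genes the median was 0.043, and 63.8% were higher in albino pools. In limma, 0 of the 34 members passed an adjusted p of 0.05 over all tested probe sets, against 0% of all tested probe sets, and the smallest adjusted p of a member was 0.999. At an unadjusted p under 0.05 the count was also 0, against 4.68% of all tested probe sets.

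The members' differences ran from -0.22 for Rrm2, a fold of 0.86, to 0.11 for Ccne1, a fold of 1.08. A difference within 0.1 in size was found for 27 of the 34 members (79.4%), against 55.1% of all tested genes, and Rrm2 alone lay beyond 0.2. All tested genes include ones with means down to 5. The share within 0.1 was 79.6% for the other replication genes and 76.4% for the other mitotic genes described below. The 95% confidence intervals reached 0.21 to 0.46 to either side of the estimate, with a median of 0.26. For 31 of the 34 members (91.2%) the whole interval lay within 0.5 to either side of 0, a fold of 1.41, against 71.0% of all tested genes. The exceptions were Rrm2 and Plk1, whose intervals reached -0.51, and Cdc6, whose interval reached just past 0.50. The split of 13 members higher and 20 lower in albino pools changed with single arrays. Members higher in albino pools numbered 7 without albino replicate 1, 19 without albino replicate 2, 20 without pigmented replicate 1 and 8 without pigmented replicate 3. It also moved with the scaling, to 10 higher and 24 lower under cyclic loess and to 3 higher and 31 lower when each array was centred on the median of its tested probe sets.

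**Figure D1:**
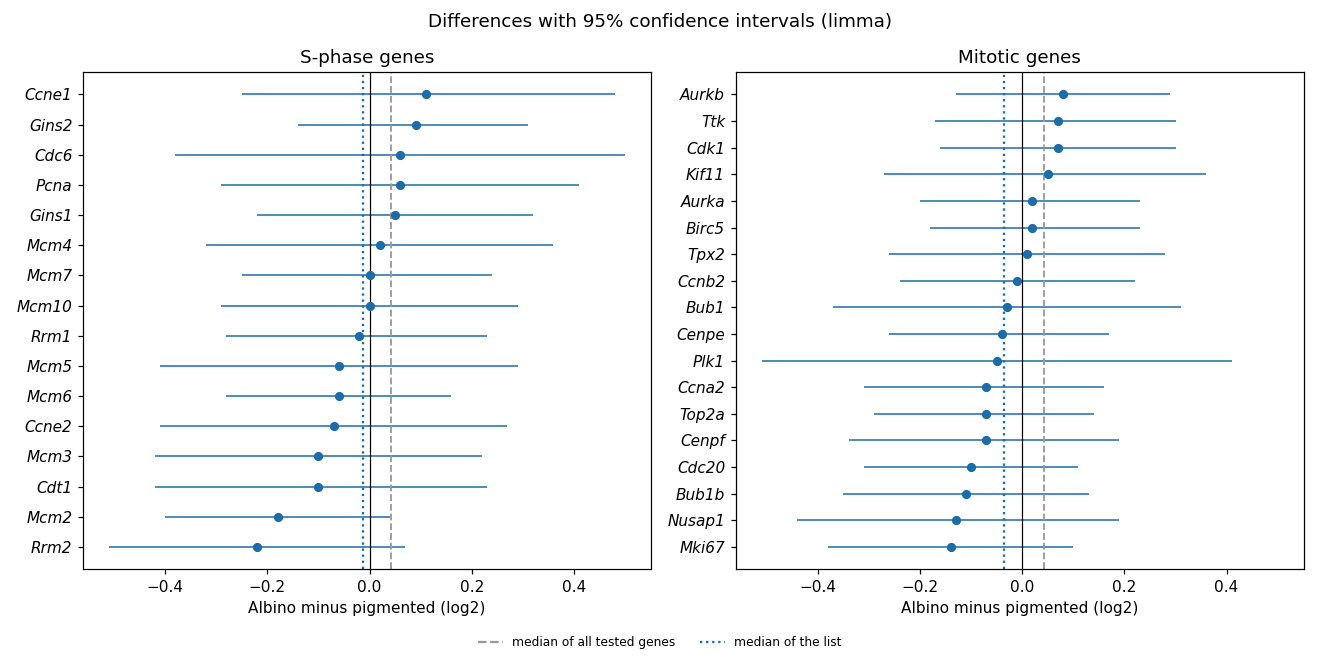
Difference in log2 value, albino minus pigmented, of the 16 tested S-phase genes (left) and 18 tested mitotic genes (right), as points with 95% confidence intervals from limma. Every interval spans 0. The dotted line is the median of the list (-0.013 for S-phase and -0.035 for mitotic genes) and the dashed line the median of all tested genes (0.043).

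Among the licensing and helicase genes, Mcm2, a subunit of the MCM ring, read 10.15, 9.96 and 10.05 in albino pools, against 10.28, 10.22 and 10.19 in pigmented pools. Every albino pool lay below every pigmented pool, and Mcm2 was the only tested member whose groups did not overlap. The difference was -0.18 (SE 0.09), with an unadjusted p of 0.1 and an adjusted p of 0.999 in limma. That is 1 of 34 members (2.94%), against 3.44% of all tested probe sets with every albino array below and 7.39% with every albino array above. Mcm3, another subunit of the ring, read 10.09, 9.78 and 9.75 in albino pools, against 10.14, 9.93 and 9.86 in pigmented pools. The groups overlapped, since albino replicate 1 stood above 2 of the pigmented pools, and the difference was -0.10 (SE 0.13). The other ring subunits differed by 0.02 for Mcm4, -0.06 for Mcm5 and Mcm6 and less than 0.01 in size for Mcm7. Mcm10, which helps start unwinding, differed by 0.00. The loaders Cdc6 and Cdt1 differed by 0.06 (SE 0.18) and -0.10 (SE 0.14).

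At the replication fork, Pcna read 11.87, 11.50 and 11.57 in albino pools, against 11.81, 11.51 and 11.44 in pigmented pools. The array numbered 1 was the highest in each genotype, the groups overlapped, and the difference was 0.06 (SE 0.15). The GINS subunit Gins2 read 8.62, 8.49 and 8.50 in albino pools, against 8.54, 8.43 and 8.38 in pigmented pools. Pigmented replicate 1 lay among the albino values, and the difference was 0.09 (SE 0.09). Gins1, of the same complex, differed by 0.05 (SE 0.11).

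Of the nucleotide supply genes, Rrm2, the subunit of ribonucleotide reductase that is made in S phase, read 10.73, 10.58 and 10.64 in albino pools, against 11.08, 10.80 and 10.73 in pigmented pools. The groups met at a single value, albino replicate 1 and pigmented replicate 3 both reading 10.73. Its difference of -0.22 (SE 0.12) had an unadjusted p of 0.112 in limma. Its partner subunit Rrm1 differed by -0.02 (SE 0.11). Ccne1, a cyclin that starts S phase, read 8.65, 8.37 and 8.21 in albino pools, against 8.51, 8.21 and 8.17 in pigmented pools. The groups overlapped widely, and its difference of 0.11 had an SE of 0.15. Ccne2, the other E-type cyclin, differed by -0.07 (SE 0.14).

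**Figure D2:**
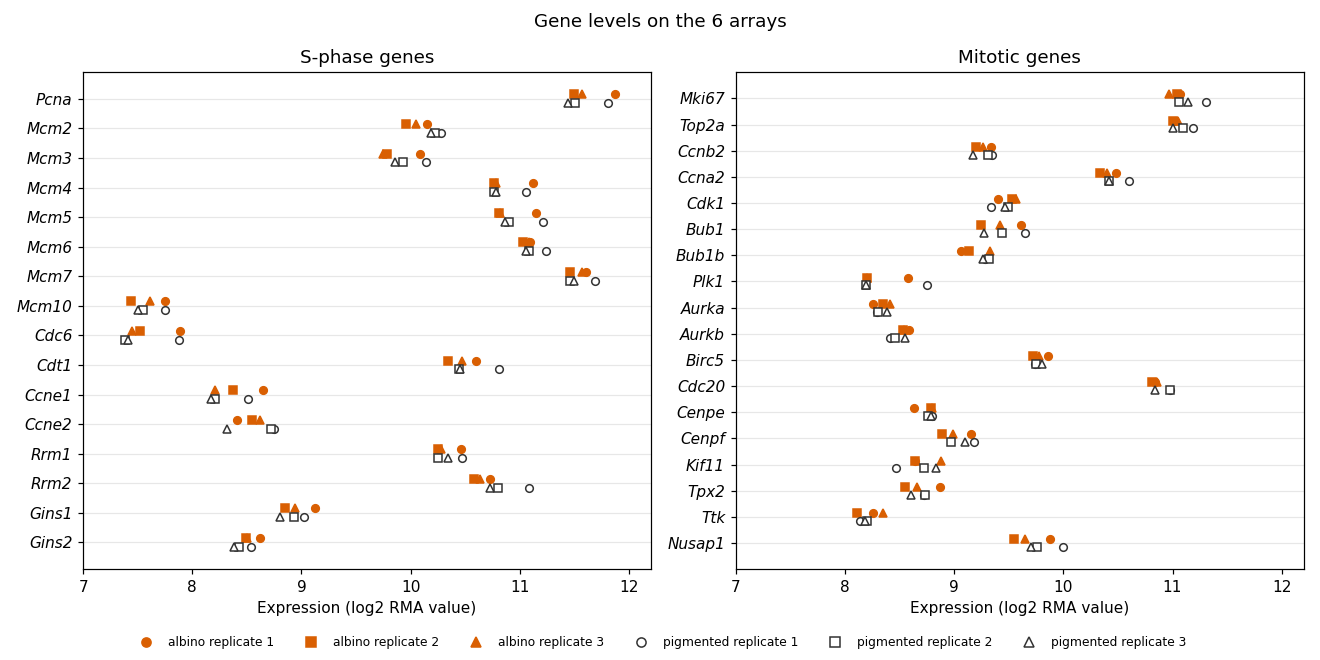
Log2 RMA value of each tested member on each of the 6 arrays, with S-phase genes on the left and mitotic genes on the right. Colour marks the genotype, and the points of the 2 genotypes overlap for every gene except Mcm2, whose albino values (9.96 to 10.15) lie below its pigmented values (10.19 to 10.28). Levels of different genes come from different probe sets and are not comparable.

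Among the mitotic genes, Mki67, the proliferation marker that coats mitotic chromosomes, read 11.07, 11.04 and 10.97 in albino pools, against 11.31, 11.06 and 11.14 in pigmented pools. Albino replicate 1 stood just above pigmented replicate 2, so the groups overlapped. The difference of -0.14 (SE 0.10) had an unadjusted p of 0.2 in limma, the smallest of the mitotic members. Top2a, the topoisomerase that untangles sister chromatids, read 11.02, 11.00 and 11.05 in albino pools, against 11.19, 11.10 and 11.00 in pigmented pools. The albino values lay within the lower part of the pigmented range, and the difference was -0.07 (SE 0.09). Nusap1, which bundles spindle microtubules, read 9.88, 9.55 and 9.65 in albino pools, against 10.00, 9.76 and 9.70 in pigmented pools. Only albino replicate 1 reached the pigmented range, and the difference was -0.13 (SE 0.13).

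Of the checkpoint genes, Bub1b, a kinase-like protein that holds back chromosome separation, read 9.06, 9.14 and 9.33 in albino pools, against 9.28, 9.32 and 9.26 in pigmented pools. Albino replicate 3 was the highest of all 6 values, and the difference was -0.11 (SE 0.10). Cdc20, which activates the ligase that ends metaphase, read 10.84, 10.81 and 10.86 in albino pools, against 10.98, 10.98 and 10.84 in pigmented pools. Pigmented replicate 3 lay among the albino values, and the difference was -0.10 (SE 0.09). The checkpoint kinases Bub1 and Ttk differed by -0.03 (SE 0.14) and 0.07 (SE 0.10).

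Of the spindle kinases and their partners, Aurkb read 8.59, 8.53 and 8.54 in albino pools, against 8.41, 8.46 and 8.55 in pigmented pools. Pigmented replicate 3 lay within the albino range, and the difference was 0.08 (SE 0.09). A second tested probe set of Aurkb went the other way, at -0.12, with every albino array below every pigmented array. Birc5, which works with Aurkb at the centromere, differed by 0.02 (SE 0.09). Aurka, the spindle pole kinase, and Tpx2, which activates it, differed by 0.02 (SE 0.09) and 0.01 (SE 0.11). Plk1 differed by -0.05 with the widest error of the members (SE 0.19). The cyclins and their kinase gave -0.01 for Ccnb2, -0.07 for Ccna2 and 0.07 for Cdk1, each with an SE of 0.10. At the kinetochore and spindle, the motor Cenpe differed by -0.04 (SE 0.09), Cenpf by -0.07 (SE 0.11) and the motor Kif11 by 0.05 (SE 0.13).

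S-phase and mitotic members had nearly the same difference between genotypes. The mean over the 16 S-phase members was 9.96, 9.73 and 9.77 in albino pools and 10.02, 9.79 and 9.74 in pigmented pools. The mean over the 18 mitotic members was 9.42, 9.31 and 9.40 in albino pools and 9.46, 9.39 and 9.37 in pigmented pools. The S-phase mean less the mitotic mean of the same pool was 0.54, 0.42 and 0.38 in albino pools and 0.56, 0.40 and 0.37 in pigmented pools. The albino pools averaged 0.44 ± 0.08 (SD, n = 3) and the pigmented pools 0.44 ± 0.10 (SD, n = 3), which leaves a genotype difference of 0.002. The spread between pools of a genotype was thus far larger than the genotype difference. Most of that spread was shared by pools of equal number, whose differences, albino minus pigmented, were -0.02, 0.02 and 0.01. The gap between the lists' median differences, S-phase minus mitotic, was 0.022. This gap was -0.003 when Mki67, Top2a and Ccna2 were left out of the mitotic list. It was 0.047 without probe sets of the _x_at and _s_at kinds, 0.063 without pigmented replicate 1 and -0.012 without albino replicate 1. With 1 array left out, the S-phase median itself lay between -0.073, without albino replicate 1, and 0.057, without pigmented replicate 1. Its sign thus rested on single arrays. It was also above 0 without albino replicate 2, at 0.028, as was the mitotic median, at 0.013. With all arrays kept, the S-phase median was 0.020 without _x_at and _s_at probe sets. It was -0.087 with each array centred on its median and -0.101 with the Y-linked genes as a covariate.

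**Figure D3:**
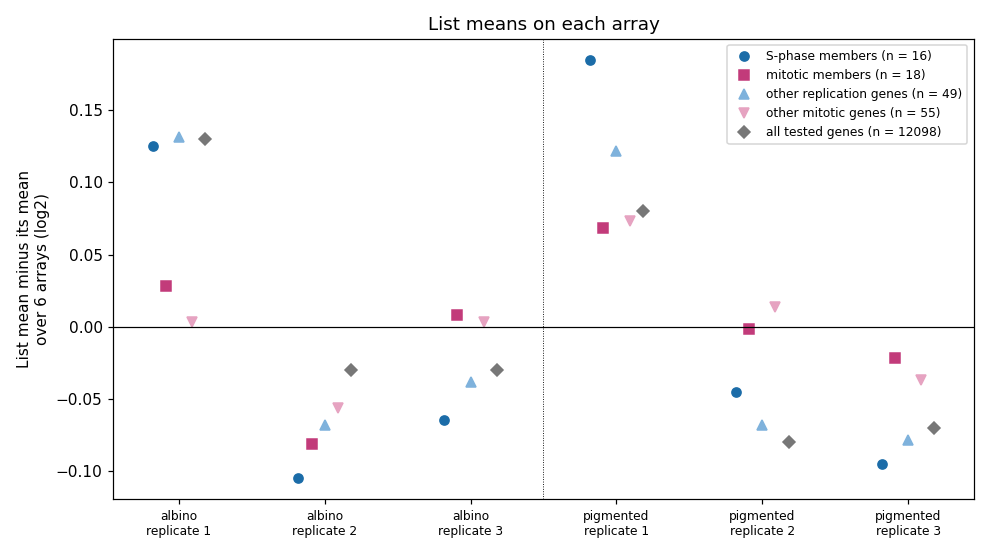
Mean log2 value of each gene list in each pool, less the list's own mean over the 6 arrays, with albino pools on the left and pigmented pools on the right. The S-phase members stand highest in the pool numbered 1 of each genotype (list means 9.96 in albino and 10.02 in pigmented). The mitotic members also stand highest there, at 9.42 and 9.46, but by less, with list means between 9.31 and 9.46. All tested genes stand highest there too, at 8.06 and 8.01. The lists of other replication and other mitotic genes are drawn beside them.

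The labels give the pools of both genotypes the numbers 1 to 3 and do not say what a number shares. Correlations between arrays, given below, set number 1 apart as a pair but did not favour this pairing of numbers 2 and 3. With the number as a replicate block in limma, 0 members passed an adjusted p of 0.05, against 0% of all tested probe sets, and the smallest adjusted p of a member was 0.237. At an unadjusted p under 0.05, 2 members were below, Rrm2 (0.0276) and Mcm2 (0.032), which is 5.88% of the members against 18.0% of all tested probe sets. Both had lower values in albino in every pair of equal number, with pair differences of -0.35, -0.22 and -0.09 for Rrm2 and of -0.13, -0.26 and -0.14 for Mcm2. The lists moved together over the pairs. Median pair differences were -0.030, -0.065 and 0.030 for the S-phase members and -0.035, -0.080 and 0.025 for the mitotic members, so pair 3 had the opposite sign in both lists.

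The larger contrast in the members lay between pool numbers. In each genotype the array numbered 1 stood above both others for 15 of the 16 S-phase members (93.8%) and for 7 of the 18 mitotic members (38.9%), against 60.2% of all tested genes. It stood below both others for none of the 16 S-phase members and for 2 of the 18 mitotic members (11.1%), Cdk1 and Aurka, against 11.0% of all tested genes. The median excess of array 1 over the other arrays was 0.221 for S-phase members, 0.053 for mitotic members and 0.178 over all tested genes. Cdc6 had the largest S-phase excess, 0.41 in albino pools and 0.49 in pigmented pools. The one S-phase exception was Ccne2, which read 8.41, 8.55 and 8.62 in albino pools, against 8.75, 8.72 and 8.32 in pigmented pools. Plk1 had the largest mitotic excess, with 8.58, 8.20 and 8.20 in albino pools, against 8.75, 8.19 and 8.19 in pigmented pools. Cdk1 ran the other way, with 9.40, 9.53 and 9.57 in albino pools, against 9.34, 9.49 and 9.47 in pigmented pools.

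Control probe sets moved with the same pool numbers. The 3' minus 5' value of beta-actin, a measure of how far labelling or intact RNA reaches along a transcript, was 1.04, 0.86 and 0.89 in albino pools and 1.35, 0.93 and 1.01 in pigmented pools. That of Gapdh was 0.70, 0.56 and 0.50 in albino pools and 0.86, 0.55 and 0.68 in pigmented pools. The 12 probe sets for bacterial Dap, Lys, Phe and Thr transcripts averaged 9.82, 9.44 and 9.53 in albino pools and 9.76, 9.41 and 9.55 in pigmented pools. All 3 measures were highest on the array numbered 1 in each genotype, and their part in the members' values was not tested. Some other probe sets of the members were lower on those arrays. Among S-phase genes, the dimmest probe set of Mcm3 read 5.81, 6.26 and 6.10 in albino pools, against 6.13, 6.32 and 6.43 in pigmented pools. The other tested probe sets of Mcm3 were highest on the array numbered 1 in each genotype. Some probe sets of the mitotic genes were far lower on those arrays. A second probe set of Cenpe read 7.28, 8.44 and 8.12 in albino pools, against 6.70, 8.51 and 8.28 in pigmented pools. The dimmest tested probe set of Cenpf read 3.25, 6.28 and 5.94 in albino pools, against 3.34, 5.98 and 5.94 in pigmented pools. The probe set used for Cenpf above ran the other way, with 9.15, 8.89 and 8.99 in albino pools, against 9.18, 8.97 and 9.10 in pigmented pools. On these probe sets of Cenpe and Cenpf the readings differed more between pool numbers than between genotypes, and those of Cenpf did so in opposite ways.

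The members' probe sets also differed by kind. On these arrays a name ending in _s_at marks a probe set whose probes match several transcripts, and one ending in _x_at a probe set in which some probes also match other sequences. Of the 82 probe sets given to a member alone, 65 were tested, and 17 of these had such a name. Those 17 had a median difference of -0.103, with 3 higher and 14 lower in albino pools. The other 48 had a median of 0.017, with 27 higher and 20 lower. Over all tested probe sets the medians were 0.007 for names ending in _x_at or _s_at and 0.053 for the rest. Every albino array lay below every pigmented array for 5 of the 17 (29.4%), against 6.91% of all tested probe sets of that kind, and for 0 of the other 48, against 2.90% of all other tested probe sets. The 5 belonged to Mcm2 (-0.18), Mcm4 (-0.37), Mcm6 (-0.28), Aurkb (-0.12) and Cdc20 (-0.21).

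Within a gene the same order held. In all 11 members with a tested probe set of each kind, the brightest _x_at or _s_at probe set gave a lower difference than the brightest of another kind, with a median gap of -0.117. Over all genes with both kinds it was lower in 1248 of 1937 (64.4%), with a median gap of -0.053. Mcm4 showed the widest gap. Its _x_at probe set read 10.58, 10.57 and 10.75 in albino pools, against 11.14, 10.99 and 10.89 in pigmented pools, a difference of -0.37 (SE 0.11). All albino pools lay below all pigmented pools there, with an unadjusted p of 0.0114 and an adjusted p of 0.877 in limma. The _at probe set of the same gene read 11.12, 10.76 and 10.78 in albino pools, against 11.06, 10.76 and 10.78 in pigmented pools, which overlap throughout. Mcm6 gave -0.28 (SE 0.11, unadjusted p 0.0402) on an _x_at probe set and -0.06 (SE 0.09) on its _at probe set. These were the 2 member probe sets of 65 (3.08%) at an unadjusted p under 0.05, against 4.68% of all tested probe sets. With the replicate block there were 6 of 65 (9.23%), against 18.0% of all.

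For Mcm2, the member whose groups stood apart, the second probe set ends in _at. It read 9.43, 9.11 and 9.16 in albino pools, against 9.40, 9.18 and 9.21 in pigmented pools, with a difference of -0.03 (SE 0.12). The groups overlapped on it, so the separation held for 1 of the gene's 2 probe sets. Rrm2 gave -0.22 on its _x_at probe set and -0.10 and 0.08 on its _at probe sets. In 12 of the 21 members with more than 1 tested probe set, the probe sets differed in sign. With both of these kinds left out, 33 members were tested, since Aurkb has no other kind. Their median differences were 0.020 for S-phase and -0.027 for mitotic members, with 15 higher and 17 lower in albino pools.

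**Figure D4:**
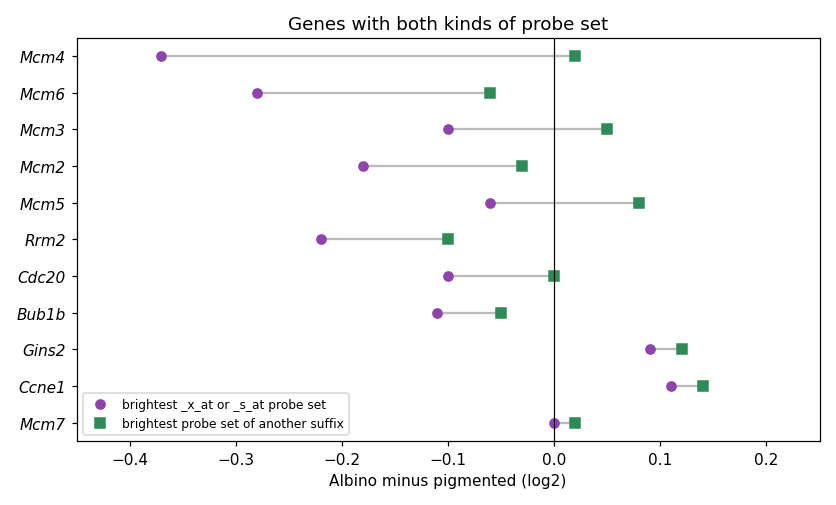
Albino minus pigmented difference in log2 value for the 11 members with a tested probe set of each kind, on the brightest _x_at or _s_at probe set and on the brightest probe set of another kind. In all 11 the _x_at or _s_at value is the lower one, with the widest gap in Mcm4 (-0.37 against 0.02).

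Genes of the same pathways outside the members gave like values. Of 53 other replication genes 49 were tested, with a median difference of 0.007, 25 higher and 22 lower in albino pools, and 0 past an adjusted p of 0.05 or an unadjusted p of 0.05 in limma. The smallest p-values were those of E2f2, a transcription factor of S-phase entry (0.32, SE 0.18), Pola2, a subunit of the primase polymerase (0.21, SE 0.13), and Gins4, of the GINS complex (0.15, SE 0.10). Gins4 read 8.61, 8.34 and 8.38 in albino pools, against 8.32, 8.25 and 8.31 in pigmented pools, and all albino values lay above. That held for 2 of the 49, Gins4 and Rpa2, against 7.39% of all tested probe sets. Albino lay below throughout for 0 of the 49, against 3.44%. Of 58 other mitotic genes 55 were tested, with a median of -0.023, 23 higher and 31 lower, 0 past the adjusted threshold and 1 at an unadjusted p under 0.05. With the replicate block, 4 of the 49 other replication genes (8.16%) and 3 of the 55 other mitotic genes (5.45%) were at an unadjusted p under 0.05, against 18.0% of all tested probe sets. The 4 were E2f2 and Pola2, higher in albino, and the primase genes Prim1 and Prim2, lower in albino. The 3 were Ect2, Kif2c and Foxm1, all lower in albino. Prim1, Prim2, Foxm1 and Rpa2 were named after their values were seen.

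The gene at an unadjusted p under 0.05 without the block was Ect2, which signals for the ring that splits the dividing cell. It read 8.80, 8.84 and 8.93 in albino pools, against 9.21, 9.20 and 9.03 in pigmented pools. All albino values lay below, and the difference was -0.29 (SE 0.10), with an unadjusted p of 0.0211 and an adjusted p of 0.969 in limma. Next came Kif2c, a kinesin that shortens microtubules at centromeres (-0.20), and Mybl2, a factor of the MYB-MuvB complex (-0.17). Groups stood apart with albino below for 6 of the 55 (10.9%), against 3.44% of all tested probe sets. Beside Ect2, Kif2c and Mybl2 these were the condensin genes Ncapd2, Ncaph and Smc2, named after their values were seen. Kif2c and Ncaph were read there by _x_at probe sets, and the _at probe sets gave -0.04 for Kif2c and 0.07 for Ncaph, while a further tested probe set of Kif2c gave 0.11. The other 3 tested probe sets of Smc2 also went the other way, with 0.14, 0.12 and 0.09. Mybl2 gave -0.23 and Ncapd2 -0.17 on a second probe set. The array numbered 1 stood above both others in each genotype for 33 of the 49 other replication genes (67.3%) and 22 of the 55 other mitotic genes (40.0%), against 60.2% of all tested genes.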

How the data were processed

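RNA of 6 pools was measured on 6 arrays, 1 a pool. The authors deposited log2 values. The submitters' processing notes name RMA and version 1.1 of Affymetrix Expression Console. RMA corrects background, makes the arrays' distributions alike and summarises probes, and no label says that the 6 arrays went through it together. A change shared by all transcripts would be removed, and the number of arrays limits the precision. Array medians over all probe sets lay between 5.19 and 5.22.

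Of 45101 probe sets, 64 controls and those with a mean under 5 were left out, and 23591 were tested. The platform annotation gave 34945 probe sets 1 gene, 932 several and 9160 none, and it can be old. The genotype comparison used limma 3.58.1 under R 4.3.3 (functions lmFit and eBayes, two-sided, Benjamini-Hochberg over all tested probe sets, threshold 0.05), after the fit was tested on simulated data. All p-values come from limma.

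The members and lists were chosen with earlier results of these data known, so no score over members was tested. All tested members are described. Values by pool are given for the 5 members of each list with the smallest unadjusted p, for Mki67, Top2a, Pcna and Mcm2, and for members whose groups do not overlap. The 3 other replication and 3 other mitotic genes with the smallest p are named. Further values by pool, and the genes shown for pool number or probe set kind, were chosen after their values were seen.

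Once genotype means were subtracted, arrays of equal number correlated over the tested probe sets, with r of 0.863 for number 1, 0.687 for number 2 and 0.448 for number 3. On this basis, which no label gives, equal numbers were treated as pairs. Albino replicate 2, however, correlated at 0.693 with pigmented replicate 3, and albino replicate 3 at 0.546 with pigmented replicate 2. The correlations thus set only number 1 apart as a pair and do not favour this pairing of numbers 2 and 3. Alternatives were the replicate block, other filters and scalings, other probe set choices, an intensity trend, a Y-linked covariate and leaving out arrays.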

Additional observations from a re-analysis of the deposited data

How the results depend on the processing

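No member passed an adjusted p of 0.05 in limma under any alternative run. Members at an unadjusted p under 0.05 numbered 0 as reported (4.68% of all tested probe sets), 2 or 5.88% under cyclic loess (6.20% of all), 3 or 8.82% with each array centred on the median of its tested probe sets (6.54%), 2 or 5.88% with the replicate block (18.0%) and 1 or 2.94% without both replicate 1 arrays (12.9%). Members higher in albino pools numbered 13 as reported, 3 under that centring, and between 7 and 20 when 1 array was left out. The mitotic median difference, -0.035 as reported, was -0.108 under that centring, which moved all genes alike, by -0.073. With the Y-linked genes as a covariate, the medians were -0.101 for S-phase and -0.073 for mitotic members, against -0.023 for all tested genes. Leaving the median centring aside, 11 alternatives could turn a member's sign. Of the 33 members with a difference other than 0, 12 kept their sign wherever these alternatives gave them a value. Of the 12, 9 were lower in albino, and Gins2, Cdk1 and Ttk were higher. Under the median centring, Cdk1 and Ttk each turned to -0.007, while Gins2 stayed above 0 at 0.013. The causes were not tested. With 3 pools a genotype, differences inside the intervals given could not be detected.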
